A study of Homo sapiens with 3 samples.

Results

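The genes described here encode the carriers that move organic anions, organic cations, carnitine and bile acids across cell membranes, from the families SLCO, SLC22, SLC10, SLC51 and SLC47. They were chosen by gene name alone, as every row named with one of these family symbols and placed on a main chromosome in GRCh38, and 45 genes of 39320 rows on main chromosomes met this rule. The SLC22 family gave 22 genes, SLCO 12, SLC10 7, SLC47 2 and SLC51 2. In GENCODE v44, 44 of the 45 were protein-coding genes.

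RNA-seq of polyadenylated RNA was performed in 3 libraries, replicates 1 to 3, all labelled as the liver cancer cell line HepG2 with a WT genotype. No treatment is given in the labels, and there was 1 condition. HepG2 is an established line grown from a human liver tumor. The labels do not say whether the 3 libraries came from separate cultures, so the spread between them may be technical.

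Levels are given as TPM, a unit of relative transcript abundance that is scaled for gene length and allows genes of 1 library to be compared. The tables hold no read counts and the depth was not estimated, so the only measure of precision is the SD over 3 libraries. It describes how closely the libraries repeat each other and not how accurate a level is. The identity of the cells was examined with markers. Of 14 hepatocyte markers, 0 reached 1 TPM in every library and 9 stood at 0 throughout, among them ALB, APOA1, APOB, SERPINA1 and the fibrinogen genes FGA, FGB and FGG. The summed level of the 14 was 0.358 to 0.620 TPM. Of 5 epithelial markers, 2 passed, KRT8 at 2610 and KRT18 at 2017 TPM on average, while CDH1, KRT19 and EPCAM were at 1.02, 0.11 and 0.03 TPM. Of 6 mesenchymal markers, 3 passed, VIM at 694, CDH2 at 27.1 and ZEB1 at 11.6 TPM, while FN1 and COL1A2 were at 0.908 and 0.0210 TPM and SPARC at 0. The summed levels were 9.28 to 11.6 TPM for 6 kidney tubule markers, nearly all from AQP1, 18.7 to 20.7 TPM for 5 enterocyte markers, nearly all from ALPI, and 1.21 to 1.48 TPM for 4 blood markers. The defining markers of the labelled cell type were therefore listed at or near 0, and the values below belong to the libraries labelled HepG2.

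Uptake from blood is the first step by which hepatocytes clear bile acids and many drugs. SLC10A1 brings conjugated bile acids into the hepatocyte with sodium, SLCO1B1 and SLCO1B3 take up bilirubin conjugates, statins and other organic anions, and SLC22A7 takes up other organic anions. SLC51A and SLC51B form the bile acid exporter of the basolateral membrane, and SLC47A1 exchanges organic cations for protons on the way out. Kidney tubules use related genes of the same families, such as SLC22A6, SLC22A8, SLC22A2 and SLC47A2, for the secretion of drugs into urine.

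Of the 45 carriers, 15 had at least 1 TPM in all 3 libraries, which is 33.3%. The share over all rows was 33.8%, and over protein-coding rows it was 59.6%. A further 16 carriers, or 35.6%, were listed at 0 in all 3 libraries, against 19.9% of protein-coding rows. The other 14 lay between, with values above 0 between 0.0152 and 1.35 TPM. The median of the mean TPM was 0.373 over the carriers and 5.01 over the 18832 protein-coding rows. The carriers were thus at or above 1 TPM at about the share of all rows and below the share of protein-coding rows, and those at 0 were above it.

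The summed level of the 45 carriers was 427, 419 and 399 TPM in replicates 1, 2 and 3, with a mean of 415 ± 14.4 TPM (SD, n = 3). The SLCO family held 62.5% of this sum, SLC22 20.4%, SLC10 11.7%, SLC51 3.64% and SLC47 1.82%. SLCO3A1 and SLCO4A1 together gave 55.6% of it. On the deposited coverage, the mean read depth per base, the same pair gave 19.8% of the carriers' sum and the SLCO family 29.8%. The leading place of these organic anion carriers of many tissues thus held on TPM and not on coverage. The plot of levels by library places the 15 genes above the dotted line at 1 TPM and shows how little the libraries differed for most of them.

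**Figure D1:**
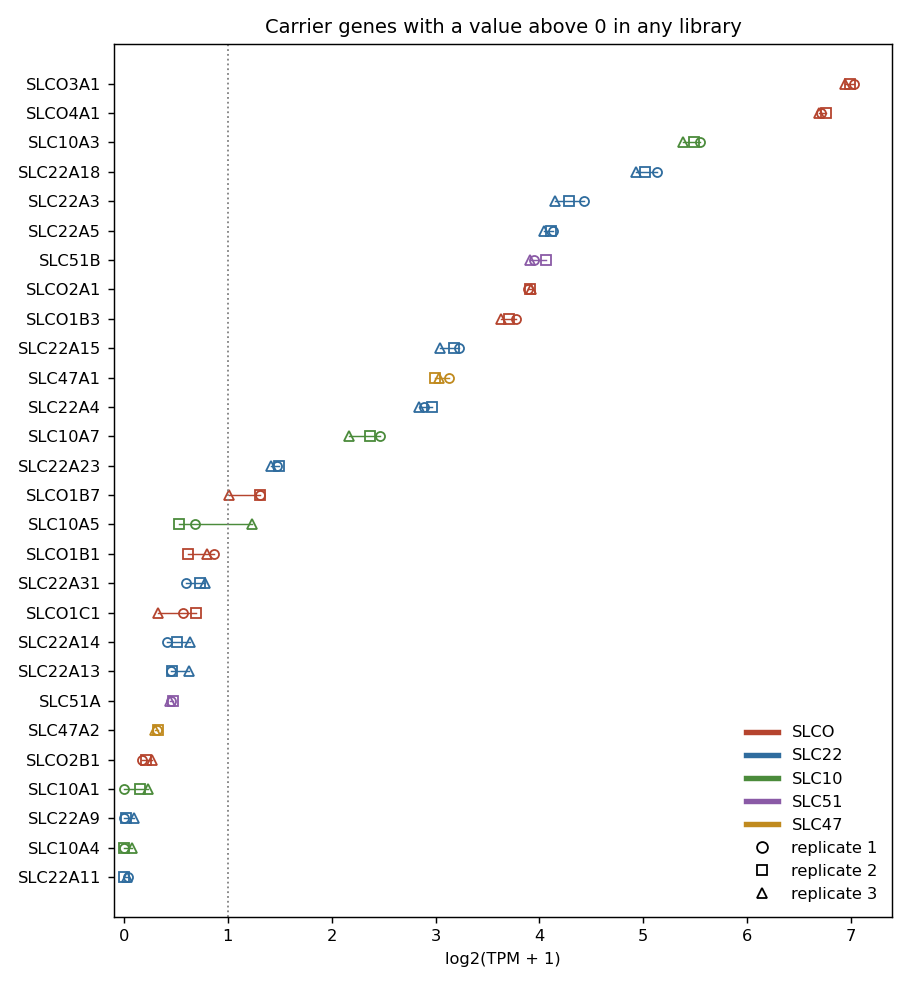
log2(TPM + 1) of 28 carrier genes with a value above 0 in any library, in order of their mean TPM, with 1 marker per library, a line from the lowest to the highest library and color for the family. SLCO3A1 and SLCO4A1 stand above the rest on TPM, and the dotted line marks 1 TPM, which 15 genes reached in all 3 libraries.

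The DNA just before the start of a gene holds much of its promoter, and promoters of widely used genes are often rich in CG dinucleotides. The 250 bases before the start were taken from RefSeq (GRCh38.p14), where 29 of the 45 carriers had an entry. For SLCO3A1, SLC22A14, SLCO2B1, SLCO1A2, SLC47A2 and SLC22A17 there were 2 entries, and 1 window was used for each gene. Whether the RNA of a gene began at the window used was not tested. The sequences of 5 carriers are printed 5′ to 3′ on the strand of the gene, with each CG in capitals, because they span the pattern in both directions. SLCO3A1 (chr15:91853458-91853707, plus strand) had the highest level and SLC22A16 (chr6:110476614-110476863, minus strand), a carnitine carrier known from testis, was listed at 0, and each held 32 CG. SLC51B (chr15:65045137-65045386, plus strand) held 4. The neighbors SLCO1B3 (chr12:20810455-20810704, plus strand) and SLCO1B1 (chr12:21130944-21131193, plus strand) held 0.
SLCO3A1: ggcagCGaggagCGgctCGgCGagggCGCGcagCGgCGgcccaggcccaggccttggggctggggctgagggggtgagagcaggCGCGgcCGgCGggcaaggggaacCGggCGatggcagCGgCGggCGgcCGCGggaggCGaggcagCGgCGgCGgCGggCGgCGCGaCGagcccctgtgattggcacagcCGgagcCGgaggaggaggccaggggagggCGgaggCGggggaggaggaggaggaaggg
SLC22A16: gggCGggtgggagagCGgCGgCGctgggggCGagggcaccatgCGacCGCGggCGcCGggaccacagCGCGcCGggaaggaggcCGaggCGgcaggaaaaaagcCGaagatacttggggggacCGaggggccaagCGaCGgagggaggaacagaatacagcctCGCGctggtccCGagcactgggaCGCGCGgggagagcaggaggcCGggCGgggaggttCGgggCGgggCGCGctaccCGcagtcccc
SLC51B: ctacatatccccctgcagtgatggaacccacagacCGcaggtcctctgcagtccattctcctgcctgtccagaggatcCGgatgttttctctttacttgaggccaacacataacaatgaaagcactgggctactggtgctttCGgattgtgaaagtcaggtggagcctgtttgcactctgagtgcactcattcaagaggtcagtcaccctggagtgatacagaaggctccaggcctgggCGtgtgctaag
SLCO1B3: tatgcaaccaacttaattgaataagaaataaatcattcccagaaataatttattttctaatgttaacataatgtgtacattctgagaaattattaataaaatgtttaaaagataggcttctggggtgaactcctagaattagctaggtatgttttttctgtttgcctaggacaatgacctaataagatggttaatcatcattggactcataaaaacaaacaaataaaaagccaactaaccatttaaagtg
SLCO1B1: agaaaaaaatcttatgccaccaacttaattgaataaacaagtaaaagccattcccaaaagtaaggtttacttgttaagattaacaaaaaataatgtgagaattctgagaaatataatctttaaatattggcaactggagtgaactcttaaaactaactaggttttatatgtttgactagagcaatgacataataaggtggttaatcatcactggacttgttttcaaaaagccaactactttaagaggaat

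The windows of SLCO1B3 and SLCO1B1 matched each other at 187 of 276 aligned columns, or 67.8%, in a global alignment. The other 9 pairs of the 5 windows matched at 35.8% to 58.0%. Both printed windows hold the stretches ccaacttaattgaataa and tggttaatcatca, and both are rich in A and T.

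Among the carriers at 1 TPM or more, SLCO4A1, SLC22A18, SLC22A3, SLCO2A1, SLC47A1 and SLCO1B7 had no matched window and are left out here. Over the 9 matched carriers at 1 TPM or more, the number of CG in the window ranged from 0 to 32 with a median of 26. Over the other 20 matched carriers it ranged from 0 to 32 with a median of 4.5. The median of all 35116 promoters in the table was 11. At least 20 CG were found in 6 of the 9 and in 2 of the 20, against 32.4% of all promoters. The promoters of all genes were not split by level, so this difference cannot be called particular to the carriers. The 2 exceptions among the low genes were SLC22A16 and SLC22A31, an orphan member at 0.632 TPM with 25 CG. On the other side, SLCO1B3 at 12.0 TPM and SLC51B at 14.7 TPM held few or no CG.

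Of the matched windows, 4 lay more than 1000 bp from the start of the deposited row (SLC22A23, SLC22A10, SLC22A7 and SLC22A17). Without them the medians were 26.5 over 8 genes and 5 over 17. The letters AGGTCA, a short motif bound by many nuclear receptors, were searched on both strands. They were found in 2 of the 9 (SLCO1B3 and SLC51B) and in 3 of the 20 (SLC10A1, SLC22A7 and SLC22A14). These are 22.2% and 15%, against 12.1% of all promoters, and the counts are too small to call the shares different. The letters TATAAA, the TATA box, were also searched on both strands, so a window may hold them as TTTATA, and were found in 0 of the 9 and in 5 of the 20 (SLC22A6, SLC22A10, SLCO1B1, SLC10A2 and SLC10A4), against 10.7% of all promoters. These matches describe the letters in the window and not the binding of a factor. In the plot of CG content and level, the matched genes with a high level fall mostly on the right, and the lower left corner holds most of the matched genes near 0.

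**Figure D2:**
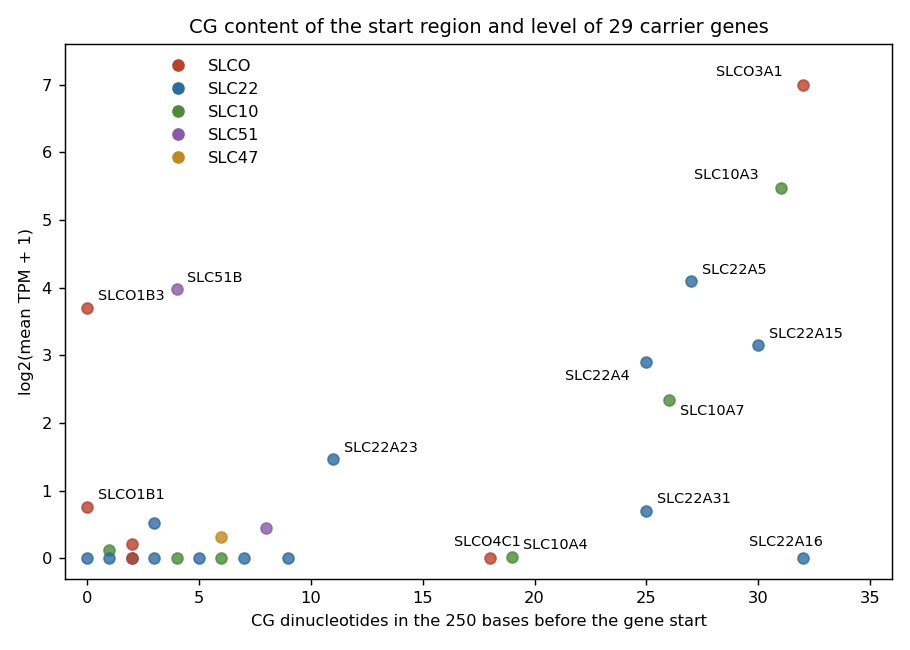
log2(mean TPM + 1) of the 29 carrier genes with a RefSeq entry against the number of CG dinucleotides in the 250 bases before the gene start, 1 point per gene, colored by family. SLC22A16 with 32 CG is at 0 on the vertical axis, and SLCO1B3 with 0 CG lies at 12.0 TPM.

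Among the bile acid carriers, the subunit gene SLC51B was the only one of the hepatic and ileal set SLC10A1, SLC10A2, SLC51A and SLC51B to reach 1 TPM. SLC10A1 (chromosome 14, 69775416 to 69797241, minus strand) was at 0, 0.109 and 0.174 TPM in replicates 1, 2 and 3. SLC10A2, which takes up bile acids in the ileum, was listed at 0 in all 3 libraries. Both sodium-dependent bile acid carriers were thus listed at or near 0 TPM here.

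SLC51B (chromosome 15, 65045387 to 65053397, plus strand) was at 14.5, 15.7 and 14.0 TPM, a mean of 14.7 ± 0.842 TPM (SD, n = 3). Its partner SLC51A (chromosome 3, 196216534 to 196233427, plus strand) was at 0.369, 0.390 and 0.360 TPM. The protein products work only as a pair, and the RNA of the subunits was unequal in every library. The log2 ratio of SLC51A to SLC51B, with a pseudocount of 1, was -3.52 ± 0.06 (SD, n = 3), with SLC51B higher in 3 of 3 libraries (two-sided exact sign-flip permutation test, p = 0.25, adjusted p = 0.25 over 5 pairs). This is the smallest p that 3 libraries allow, so no pair could pass a threshold of 0.05. SLC51B overlaps RASL12 on the opposite strand over 7822 bp, and RASL12 was at 0, 0.128 and 0.235 TPM.

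The other SLC10 members are not known as bile acid carriers, and they held most of the family's RNA. SLC10A3 (X chromosome, 154487306 to 154490690, minus strand), an orphan member of the family, was at 45.7, 43.8 and 40.7 TPM and gave 89.7% of the summed SLC10 level of 48.4 ± 2.56 TPM (SD, n = 3). SLC10A7 (chromosome 4, 146253981 to 146522351, minus strand), linked to cellular calcium handling and skeletal growth, was at 4.50, 4.16 and 3.49 TPM. Replicate 1 was highest and replicate 3 lowest for both genes. SLC10A5, another orphan, was at 0.608, 0.440 and 1.35 TPM and was the only gene of the 14 in between that reached 1 TPM in any library. SLC10A4, a protein of synaptic vesicles, had 0.0548 TPM in replicate 3 and was at 0 in the other two, and SLC10A6, a carrier of steroid sulfates, was listed at 0 in all 3.

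The wider bile acid pathway was read from a list of 26 other genes, of which 10 reached 1 TPM in every library and 4 were listed at 0 throughout. Over protein-coding rows the shares were 59.6% at 1 TPM or more and 19.9% listed at 0. In synthesis, 4 of 10 genes passed. These were HSD17B4 at 66.1 TPM and SCP2 at 56.9 TPM, which shorten side chains in peroxisomes, AMACR at 12.3 TPM, a racemase of the same route, and HSD3B7 at 5.18 TPM, which acts on the steroid ring. CYP7A1, the rate-limiting enzyme of bile acid synthesis, was at 0, 0.0169 and 0 TPM. CYP8B1 and CYP7B1 were listed at 0, and CYP27A1 was at 0.361 TPM. AKR1D1, a ring reductase, and ACOX2, a peroxisomal oxidase of the side chain, had 0.0230 and 0.0164 TPM in replicate 2 and 0 in the other libraries. The 4 listed cytochromes P450 were thus below 1 TPM, and the genes above it were peroxisomal enzymes with wider roles and HSD3B7.

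In conjugation, SLC27A5, which activates bile acids with coenzyme A, was at 5.25 TPM, and BAAT, which joins them to glycine or taurine, was at 0.0563 TPM. In export, 4 of 6 genes passed. ABCC2, an apical pump of conjugates, was at 44.0 TPM, ABCC4 at 12.2 TPM, ABCC3 at 6.64 TPM and the lipid flippase ATP8B1 at 2.81 TPM. ABCB11, the bile salt export pump, was at 0.0681, 0.0576 and 0.0434 TPM, and ABCB4, which moves phosphatidylcholine into bile, was at 0.0345 TPM. Pumps with broad substrates were therefore above 1 TPM while the dedicated bile salt pump was not.

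In sensing and feedback, 1 of 6 genes passed, the receptor FGFR4 at 9.34 TPM. Its partner KLB was at 0.409 TPM, the bile acid receptor NR1H4 at 0.699 TPM, and its target NR0B2 was listed at 0. FGF19, the hormone of the feedback, and GPBAR1, a surface receptor for bile acids, had means of 0.00899 and 0.0249 TPM. Of the intracellular binding proteins, FABP1 was listed at 0 and FABP6 had 0.265 TPM in replicate 2 alone. The plot of bile acid genes shows the same division in each library.

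**Figure D3:**
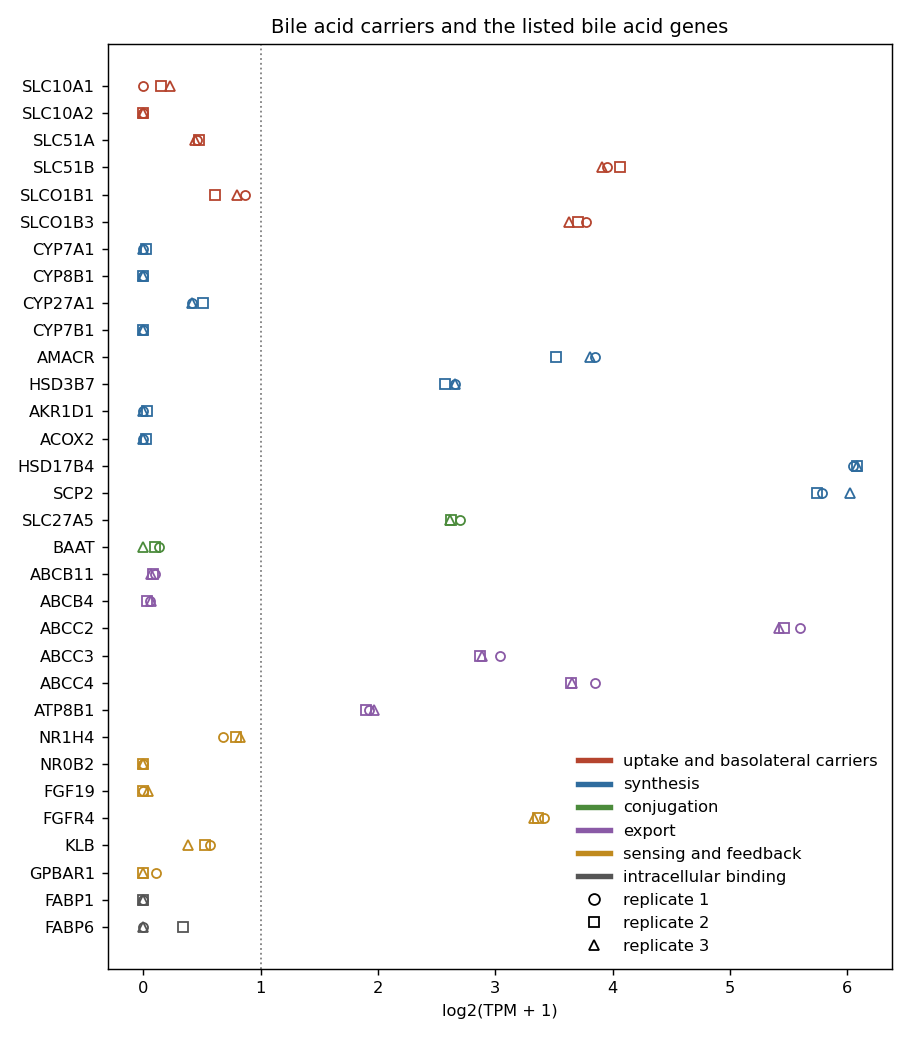
log2(TPM + 1) of 6 bile acid carriers and the 26 listed bile acid genes, with 1 marker per library, color for the step and a dotted line at 1 TPM. SLC51B, SLCO1B3 and 10 of the 26 listed genes lie beyond the line in all 3 libraries, while SLC10A1, CYP7A1 and ABCB11 lie near 0.

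The SLCO family encodes the organic anion transporting polypeptides, which work without sodium. Of its 12 genes, 5 had at least 1 TPM in all 3 libraries, 4 were listed at 0 and 3 lay between. SLCO3A1 (chromosome 15, 91853708 to 92172435, plus strand), which carries prostaglandins and thyroid hormone, was at 130, 126 and 122 TPM, a mean of 126 ± 3.85 TPM (SD, n = 3). SLCO4A1 (chromosome 20, 62642058 to 62690722, plus strand), a carrier of thyroid hormone, was at 104, 108 and 102 TPM. On TPM, the libraries of SLCO3A1 were all above those of SLCO4A1, with a ratio of the means of 1.20, and both genes were above every other carrier. On coverage the direction turned, with SLCO3A1 at 47.6, 45.3 and 39.1 and SLCO4A1 at 100.1, 102 and 85.8, and SLC10A3 and SLC22A18 had higher means than both. SLCO4A1 lies across the opposite-strand genes LOC101928465 at 5.69 TPM and SLCO4A1-AS1 at 2.95 TPM, and reads of the 2 strands cannot be told apart if the strand was not used.

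SLCO2A1 (chromosome 3, 133932696 to 134030076, minus strand), the prostaglandin transporter, was at 13.9, 14.1 and 14.1 TPM. Its coefficient of variation of 0.865% was the lowest of the 15. SLCO1B3 (chromosome 12, 20810704 to 20916911, plus strand), an uptake carrier of hepatocytes, was at 12.7, 12.1 and 11.4 TPM. SLCO1B7 (chromosome 12, 21015696 to 21090106, plus strand), a relative of the hepatocyte carriers, was at 1.47, 1.48 and 1.02 TPM. Its coefficient of variation of 20.0% was the highest of the 15, with replicate 3 below the other two.

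SLCO1B1 (chromosome 12, 21131194 to 21239796, plus strand), the other main hepatocyte uptake carrier of this family, was at 0.827, 0.530 and 0.740 TPM. The log2 ratio of SLCO1B3 to SLCO1B1 was 2.94 ± 0.14 (SD, n = 3) on TPM, higher in 3 of 3 libraries (two-sided exact sign-flip permutation test, p = 0.25, adjusted p = 0.25). On the deposited coverage the ratio was 0.39 ± 0.26. By coverage SLCO1B3 was at 6.32, 5.89 and 4.96 and SLCO1B1 at 5.19, 3.25 and 4.07, so that their ranges overlapped. The direction was the same on both scales and the size was not. SLCO1B3, SLCO1B7 and SLCO1B1 are close paralogs, and how reads that match several of them were assigned is not given in the sources used here.

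The other SLCO genes were below 1 TPM in every library. SLCO2B1, which takes up steroid conjugates and statins in liver and intestine, was at 0.125, 0.161 and 0.203 TPM. SLCO1C1, a thyroxine carrier of brain vessels, was at 0.482, 0.619 and 0.253 TPM, and it overlaps PDE3A, at 21.4 TPM, on the same strand over 6780 bp. SLCO1A2, an organic anion carrier of brain vessels and bile duct cells, was listed at 0, as were SLCO4C1 of the kidney, SLCO6A1 of the testis and SLCO5A1.

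In the SLC22 family, 6 of 22 genes had at least 1 TPM in all 3 libraries, 10 were listed at 0 and 6 lay between. The family summed to 84.6 ± 5.24 TPM (SD, n = 3). Of the organic cation carriers, SLC22A3 passed and SLC22A2 did not. SLC22A3 (chromosome 6, 160348378 to 160454982, plus strand), a carrier of monoamines in many tissues, was at 20.5, 18.5 and 16.7 TPM. Replicate 1 was the highest library and replicate 3 the lowest. SLC22A2, the cation carrier of kidney tubules, was listed at 0.

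Of the carnitine and zwitterion carriers of the family, SLC22A5, SLC22A4 and SLC22A15 passed and SLC22A16 did not. SLC22A5 (chromosome 5, 132369704 to 132395614, plus strand), the sodium-dependent carnitine carrier, was at 16.5, 16.2 and 15.5 TPM. SLC22A4 (chromosome 5, 132294384 to 132344199, plus strand), its neighbor and the carrier of ergothioneine, was at 6.40, 6.81 and 6.19 TPM. The log2 ratio of SLC22A5 to SLC22A4 was 1.19 ± 0.05 (SD, n = 3) on TPM, higher in 3 of 3 libraries (two-sided exact sign-flip permutation test, p = 0.25, adjusted p = 0.25). It was 4.14 ± 0.04 on coverage, so SLC22A5 was the higher gene on both scales by unequal amounts.

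SLC22A15 (chromosome 1, 115976513 to 116070054, plus strand), a carrier of zwitterions such as carnosine, was at 8.38, 8.05 and 7.22 TPM. SLC22A16, whose CG-rich window is printed above, was listed at 0. MIR3936HG, at 3.50 TPM, lies on the opposite strand and overlaps SLC22A4 over 32924 bp and SLC22A5 over 213 bp.

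Of the remaining members, SLC22A18 (chromosome 11, 2899721 to 2925246, plus strand), an imprinted gene studied as a candidate tumor suppressor, was the highest of the family at 34.0, 31.4 and 29.5 TPM. It overlaps SLC22A18AS, at 4.87 TPM, on the opposite strand over 5784 bp. SLC22A23 (chromosome 6, 3268973 to 3456574, minus strand), an orphan, was at 1.78, 1.82 and 1.67 TPM. It overlaps PSMG4, at 25.2 TPM, on the opposite strand over 39252 bp. A gene of higher level thus lies across SLC22A23, and one of lower level across SLC22A18. In all, 5 of the 15 carriers at 1 TPM or more overlap a row at 1 TPM or more. The same share over all rows was not computed, so this count cannot be called high or low.

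The organic anion carriers of liver and kidney in this family were at or near 0. SLC22A7, a hepatocyte carrier of organic anions such as cyclic nucleotides, was listed at 0. SLC22A9, which exchanges sulfated steroids in the liver, was at 0, 0.0152 and 0.0677 TPM. SLC22A6 and SLC22A8, the main drug uptake carriers of the proximal tubule, were listed at 0, as was SLC22A12, the urate carrier of the kidney. SLC22A11, an anion and urate carrier, was at 0.0273, 0 and 0.0216 TPM. SLC22A10, SLC22A17, SLC22A24 and SLC22A25 were also listed at 0, and SLC22A13, a carrier of nicotinate and urate, SLC22A14 and SLC22A31 had means of 0.428, 0.436 and 0.632 TPM.

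The SLC47 family exports organic cations in exchange for protons. SLC47A1 (chromosome 17, 19533854 to 19579034, plus strand), found in liver and kidney, was at 7.73, 6.96 and 7.21 TPM, a mean of 7.30 ± 0.391 TPM (SD, n = 3). SLC47A2 (chromosome 17, 19678313 to 19719598, minus strand), found in kidney, was at 0.242, 0.251 and 0.228 TPM. The log2 ratio of SLC47A1 to SLC47A2 was 2.74 ± 0.07 (SD, n = 3), higher in 3 of 3 libraries (two-sided exact sign-flip permutation test, p = 0.25, adjusted p = 0.25). On coverage it was 4.67 ± 0.09. Of the cation carriers named here, SLC22A3 and the exporter SLC47A1 were thus above 1 TPM, and SLC22A2 and SLC47A2 were below it.

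Many of these genes lie side by side in the genome. With a gap of at most 1 Mb between neighbors, 24 of the 45 carriers formed 8 clusters, and 4 clusters held a gene at 1 TPM or more in all 3 libraries. In the clusters 6 of 24 genes passed, and outside them 9 of 21 did. The largest cluster, on chromosome 11 from 62976597 to 63410878, held the 6 anion carrier genes SLC22A6, SLC22A8, SLC22A24, SLC22A25, SLC22A10 and SLC22A9, and 0 of them passed. On chromosome 12 from 20681800 to 21403663, 2 of 5 SLCO1 genes passed, with SLCO1B3 and SLCO1B7 between SLCO1C1 and SLCO1B1. On chromosome 6, SLC22A3 passed and SLC22A2 did not. On chromosome 5 from 132294384 to 132395614, both SLC22A4 and SLC22A5 passed. Neighboring paralogs therefore often differed in level, which the plot of clusters shows gene by gene.

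**Figure D4:**
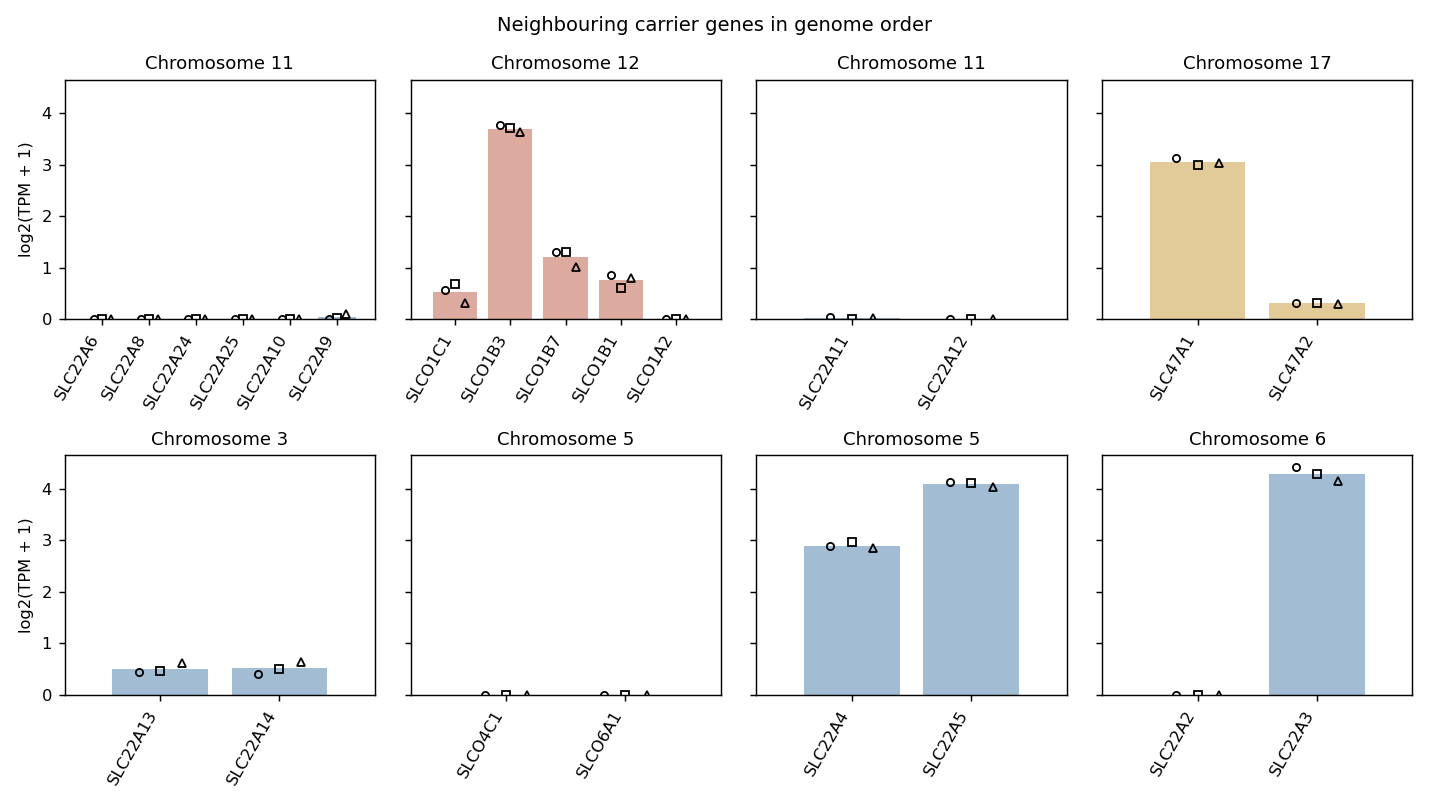
log2(TPM + 1) of carriers in the 8 clusters, 1 panel per cluster in genome order, with bars for the mean over 3 libraries and markers for replicates 1 (circle), 2 (square) and 3 (triangle). The 6 genes of the largest cluster lie at or near 0, and SLC22A3 at 18.6 TPM stands beside SLC22A2 at 0.

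The order of the 15 carriers by mean TPM was SLCO3A1, SLCO4A1, SLC10A3, SLC22A18, SLC22A3, SLC22A5, SLC51B, SLCO2A1, SLCO1B3, SLC22A15, SLC47A1, SLC22A4, SLC10A7, SLC22A23 and SLCO1B7. The ranges over the 3 libraries did not overlap for 11 of the 14 neighbors in this order. The order was set by the same 3 libraries, and the same share over other rows was not computed. The count therefore cannot be called high or low, and it holds for TPM alone. The ranges overlapped for SLC22A5 and SLC51B, for SLC51B and SLCO2A1, and for SLC22A15 and SLC47A1. Compared within each library, SLC22A5 was above SLC51B and SLC22A15 above SLC47A1 in all 3. SLC51B was above SLCO2A1 in replicates 1 and 2 and slightly below it in replicate 3. At least 10 TPM in all libraries was found for 9 carriers and at least 100 TPM for 2.

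The spread between libraries was small. The coefficient of variation of the 15 had a median of 5.55%, against 5.95% over all rows at 1 TPM or more. A range of log2(TPM + 1) above 1 was seen in 0 of the 15, against 1.26% of 13753 rows, and the highest range was 0.30 for SLCO1B7. Replicate 3 was the lowest library for 13 of the 15, against 49.1% of 13307 rows, a count that was chosen after the values were seen. Within a library, the top value of coverage divided by FPKM grows with the number of reads, and this value was also lowest in replicate 3, at 11.5 against 13.3 in replicate 1 and 12.8 in replicate 2. The part of depth in this order was not tested.

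The order depended on the scale. FPKM is scaled for length and library size and coverage for length alone, and the ratio of coverage to FPKM differed widely between genes of 1 library. In replicate 1 this ratio, as a percentage of its highest value, was 100% for SLC47A1 and SLCO1B7, 96.7% for SLC22A5 and 62.6% for SLC51B. It was 5.85% for SLCO3A1, 7.58% for SLC22A3, 7.95% for SLCO1B3 and 15.3% for SLCO4A1. A ratio under 20% was found for 8 of the 15 carriers. Over protein-coding rows at 1 TPM or more in all 3 libraries the share was 11.6%. The median was 16.5% over the 15 carriers and 76.3% over those rows. The RNA of SLCO3A1 was thus first by TPM and far lower by read depth per base.

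By coverage, SLC10A3 was first with 163 ± 20.6 (SD, n = 3), followed by SLC22A18 with 102 ± 13.5 and SLCO4A1 with 95.9 ± 8.76. SLCO3A1 took rank 7 with 44.0 ± 4.42, and SLCO1B7, last by TPM, took rank 10 with 7.97 ± 2.06. These 2 genes moved by 5 or more ranks. The transcripts that entered each value are not given in the tables, and the reason for the low ratios was not tested. The plot of TPM against coverage shows SLCO3A1, SLC22A3 and SLCO1B3 far below genes of like TPM such as SLC22A5 and SLC51B, or, for SLCO3A1, below SLCO4A1.

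**Figure D5:**
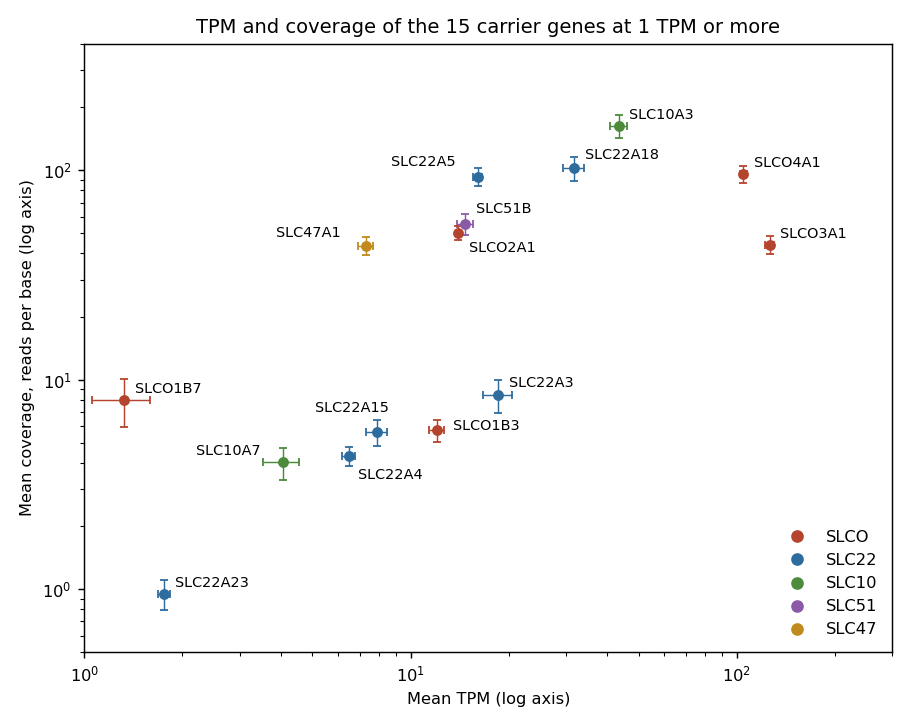
Mean coverage in reads per base against mean TPM of the 15 carriers at 1 TPM or more in all 3 libraries, both on log axes, with bars of 1 SD over 3 libraries in both directions and color for the family. SLCO3A1 has the highest TPM, 126, with a coverage of 44.0, and SLC10A3 has the highest coverage, 163, at 43.4 TPM.

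Other carriers of small polar solutes were read from a list of 16 genes that also holds BSG and PDZK1, which are not carriers. Of the 16, 9 had at least 1 TPM in all 3 libraries, BSG and PDZK1 among them, against 59.6% of protein-coding rows. The nucleoside carrier SLC28A2 and the peptide carrier SLC15A1 were listed at 0. The lactate carriers SLC16A3 and SLC16A1 were at 317 and 90.2 TPM, and BSG, the chaperone they need, was at 633 TPM. The nucleoside carriers SLC29A2 and SLC29A1 were at 42.2 and 26.6 TPM, and the folate carriers SLC19A1 and SLC46A1 at 18.0 and 4.74 TPM. The thiamine carrier SLC19A2 was at 15.8 TPM. PDZK1, a scaffold that binds carriers of the SLC22 and SLCO families at the membrane, was at 5.56, 7.17 and 6.88 TPM. The median of the mean TPM was 5.64 over this list, with BSG and PDZK1 included, and 0.373 over the 45 organic ion and bile acid carriers.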

How the data were processed

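RNA-seq was analysed in 3 libraries labelled HepG2, with no second group. Paired-end reads of 150 bp were trimmed and aligned to GRCh38 by the authors, and the submitters' processing notes name FastQC 0.11.8, Trim Galore 0.6.2, STAR 2.6.1a and StringTie. The annotation, the strand setting and the handling of reads that match several genes are not given in the sources used here. The deposited coverage is the mean read depth per base of a gene, without scaling for depth. The deposited FPKM values account for gene length and library size, and the deposited TPM values sum to 1 fixed total per library. Read depth is not listed and was not estimated, and the precision is the SD over 3 libraries.

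Matching the tables on gene name and coordinates left 43389 rows. Carriers were taken by gene name from rows on main chromosomes. The genes named were the carriers with a mean of at least 1 TPM, the carriers known from liver, intestine and kidney, and the remaining members by count or level. The carriers and lists were chosen with earlier results of these data known. Of the markers, bile acid genes and other carriers, all list members were used. Within each library, 5 pairs of related carriers were compared as log2 ratios of (TPM + 1). An exact permutation test, two-sided, flipped the signs of the 3 library values, and p-values were adjusted by Benjamini-Hochberg over the 5 pairs. Start regions of 250 bases came from RefSeq and were aligned globally with a match score of 1, a mismatch score of -1, a gap opening of -2 and a gap extension of -0.5.

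The values of 1 carrier, and of the pair that holds it, are not reported here. The range calculation was tested on simulated data. The alternatives were other limits on TPM, another pseudocount, the use of FPKM or coverage instead of TPM, size factors from medians of ratios, scaling without mitochondrially encoded genes or without TRNC, rows on other references, and leaving out each replicate. The ranks and shares by coverage and the scaling without TRNC were chosen after seeing the data. Python 3.11.15, numpy 2.4.6, pandas 2.3.3, scipy 1.17.1, Biopython 1.88 and matplotlib 3.10.9 were used.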

Additional observations from a re-analysis of the deposited data

How the results depend on the processing

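The count of carriers at the limit in all 3 libraries was 25 with a limit of 0.1 TPM, 9 with 10 TPM and 13 with 1 FPKM. Mitochondrially encoded genes took 19.9% to 20.2% of all TPM. Without them each level rose by a factor of 1.25, and the summed TPM was 519 for all carriers, 325 for SLCO, 106 for SLC22, 60.5 for SLC10, 18.9 for SLC51 and 9.43 for SLC47. Without the mitochondrial tRNA gene TRNC the factor was 1.20 to 1.21. Median-of-ratios factors of 0.976 to 1.03 moved no sum or named mean by more than 1 SD. Each of the 5 log2 ratios kept its direction under a pseudocount of 0.1, FPKM, coverage and each left-out replicate, and on coverage the ratio of SLC22A5 to SLC22A4 went from 1.19 to 4.14 and that of SLCO1B3 to SLCO1B1 from 2.94 to 0.39. Leaving out each replicate moved 0 of 120 means, sums and log2 ratios by more than 1 SD and reversed 0, but leaving out 1 of 3 cannot move a mean that far. Of the counts, that of carriers listed at 0 was 17 without replicate 3, which alone had a value for SLC10A4, and 16 without either of the others, and the rest did not move. No paired analysis was possible because there was only 1 condition. Read depth was not estimated, so a gene listed at 0 may have been present below detection, and no limit of detection is given. A listed 0 may also be a failed estimate.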
